A study of Homo sapiens with 4 samples.

Results

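The Frizzled receptor family was examined in the established human glioblastoma line LN-229 on 4 Affymetrix 3' expression arrays. Its members were taken as the probe sets whose only gene symbol in the platform annotation was one of FZD1 to FZD10. This gave 18 of 54613 probe sets and 9 of the 10 genes. FZD8 had no such probe set, because its 3 probe sets were annotated jointly with the microRNA gene MIR4683. A probe set is a group of short probes that together report 1 transcript region, and a gene with several was led here by the one of highest mean signal. Cells labelled as given doxycycline for 48 h to express WIF1 (2 cultures, 1 array each) were set against cells labelled as non-induced LN-229 (2 cultures, 1 array each). The labels call the cultures biological replicates and name no clone or promoter for the WIF1 construct. No array held cells given doxycycline without WIF1, so effects of the antibiotic and of WIF1 cannot be told apart.

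Frizzled proteins are receptors with 7 membrane-spanning segments whose cysteine-rich outer domain binds WNT ligands. On binding they recruit Dishevelled proteins inside the cell, and with the co-receptors LRP5 or LRP6 they stabilise beta-catenin, while with ROR or RYK receptors they feed branches that do not need beta-catenin. WIF1 is a secreted protein that binds the WNT ligands themselves and so acts before the receptor. By sequence the family falls into the groups FZD1, FZD2 and FZD7, then FZD5 and FZD8, then FZD3 and FZD6, and last FZD4, FZD9 and FZD10.

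The deposited values are log2 intensities, with array medians of 6.15 and 6.15 in the arrays labelled induced and 6.16 and 6.19 in the controls. The only WIF1 probe set gave 2.93 and 3.03 in the arrays labelled induced against 2.98 and 2.90 in the controls, below the array background on all 4. The difference was 0.043 (SE 0.10, adjusted p = 0.911, limma), so a rise of WIF1 RNA under the label of induction was not seen, and every direction below rests on the labels alone. Whether this probe set reads the RNA of the construct is not given in the sources used here. Of 10 glioma and astrocyte markers 7 lay above the array background defined below on all arrays, among them vimentin, nestin, SOX2, S100B and FABP7, while GFAP, SOX9 and AQP4 did not. The markers PTPRC of leukocytes, CDH5 of endothelium and EPCAM of epithelium were not above that background on any array. However, 2 of 5 leukocyte (CD3E and CD79A), 1 of 5 endothelial (PECAM1) and 2 of 5 epithelial markers (KRT8 and KRT18) passed it on all arrays. So did 3 of 4 neuron and 1 of 3 measured oligodendrocyte markers. In the second array labelled induced the 3' minus 5' log2 difference of the dap spike-in control was 2.93, against 2.66 in the first and 2.59 and 2.69 in the controls. For the cells' own ACTB RNA it was 0.033 and 0.11 in the arrays labelled induced against -0.036 and 0.021 in the controls. For GAPDH it was -0.043 and -0.047 in the arrays labelled induced against -0.067 and -0.069 in the controls, where the second array labelled induced did not stand apart from the first.

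Of the 9 measured Frizzled genes 7 gave a signal above background: FZD1, FZD2, FZD3, FZD4, FZD5, FZD6 and FZD7. The value table held no detection calls, so the background was taken from 107 probe sets of 82 olfactory receptor genes, a family with no known role in glioma cells. A probe set counted as above background where it exceeded, on each of the 4 arrays, the 95th percentile of those probe sets (6.49 and 6.65 in the arrays labelled induced, 6.51 and 6.53 in the controls). Of the 18 Frizzled probe sets 8 did so, against 40.3% of all probe sets and 5 of the 107 olfactory receptor probe sets. A gene counted as above background where at least 1 of its probe sets was. FZD7 passed on 2 probe sets and each of the other genes that passed on 1. By leading probe set 7 of the 9 Frizzled genes passed, against 10971 of all 19775 genes. FZD9 and FZD10, read by 1 probe set each, stayed below the limit on all arrays. The same 7 genes were found with the 99th percentile (6.94 and 6.91 in the arrays labelled induced, 6.96 and 6.86 in the controls) and with the array median as the limit. Passing a limit does not by itself show expression. The leukocyte marker CD79A, at 6.99 and 6.92 in the arrays labelled induced and 6.98 and 7.15 in the controls, passed both percentiles too. The leading probe sets of FZD3 and FZD4 averaged little more, at 7.15 and 7.28.

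**Figure D1:**
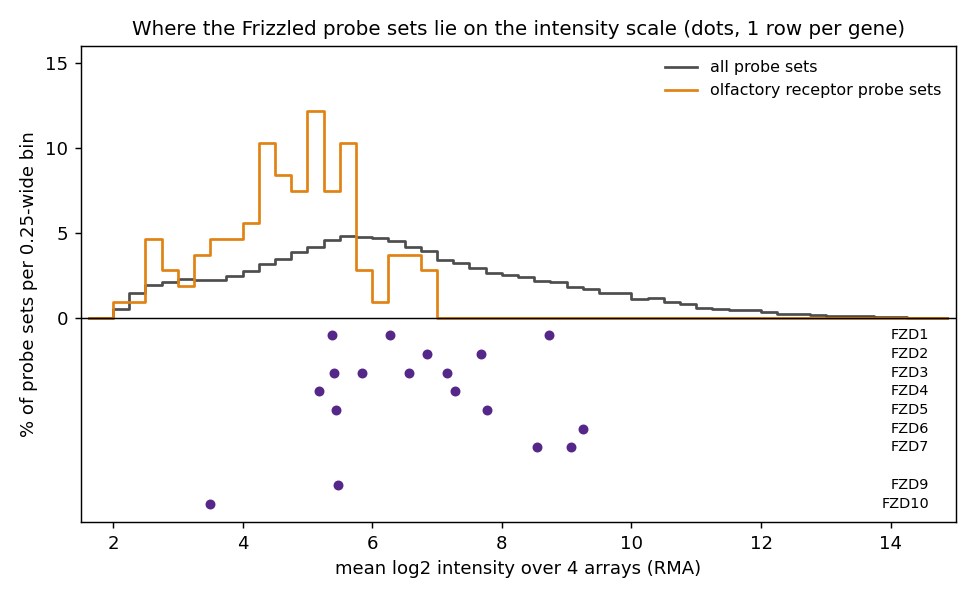
Distribution of the mean log2 intensity over the 4 arrays for all probe sets (grey) and for olfactory receptor probe sets (orange), as the percent of probe sets in each bin, with the 18 Frizzled probe sets as dots in 1 row per gene. FZD10 and FZD9 lie among the olfactory receptor probe sets, while FZD1, FZD6 and FZD7 have a probe set at 8.5 or more.

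Probe sets of 1 gene differed widely in signal. The 3 probe sets of FZD1 averaged 8.73, 6.27 and 5.38, and the 4 of FZD3 averaged 7.15, 6.56, 5.85 and 5.42. Such gaps come within a gene, so signals were not used to order the Frizzled genes by their amount of RNA.

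No Frizzled probe set differed between the cells labelled induced and control after adjustment over all 54613 probe sets (limma, adjusted p from 0.472 to 0.975). The called share of all probe sets was 0%. Of the 18 probe sets 12 were lower and 6 higher in the cells labelled induced by sign, where 30088 of all probe sets were lower, with a median log2 difference of -0.10, against -0.014 over all probe sets. Before adjustment 6 of the 18 stood under 0.05, all of them lower: the 3 of FZD1 and 1 each of FZD5, FZD7 and FZD9. Over all probe sets 10% stood under 0.05, and 5.27% did so on the lower side. After subtracting each array's median the lower side held 4 Frizzled probe sets and 3.42% of all probe sets. The Frizzled count under 0.05 changed when an array was left out, as did the share of all probe sets. It was 2 without the first array labelled induced (11.4% of all probe sets) and 2 without the second (4.80%). It was 1, a higher one, without the first control array (7.81%) and 3 without the second (3.91%).

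The groups did not overlap in 11 of the 18 probe sets, against 41.4% of all probe sets. This count was 8 with arrays centred on their medians (41.9% of all probe sets) and 9 after cyclic loess (42.2%). Of the 11 found in the values as deposited, 9 were lower, against 23.5% of all probe sets: all those of FZD1, FZD5, FZD7 and FZD9 and the brighter of FZD4. The other 2, against 17.9% of all probe sets, were higher and read FZD2 and FZD10. The typical size was small: the median absolute difference between groups was 0.11 for the Frizzled probe sets and 0.083 over all probe sets. That difference is one between means of 2 arrays, unlike the gaps between single arrays given next. The median gap within the pair labelled induced was 0.12 for the Frizzled probe sets and 0.094 over all probe sets. Within the control pair it was 0.068 and 0.089. Between single arrays of different groups it ran from 0.11 to 0.18 for the Frizzled probe sets and from 0.085 to 0.12 over all probe sets. With 2 arrays per group an exact permutation test cannot go below p = 0.333, so no single probe set could be called by it. In extracts of whole cultures, fewer cells expressing a receptor and less of its RNA per cell cannot be told apart.

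**Figure D2:**
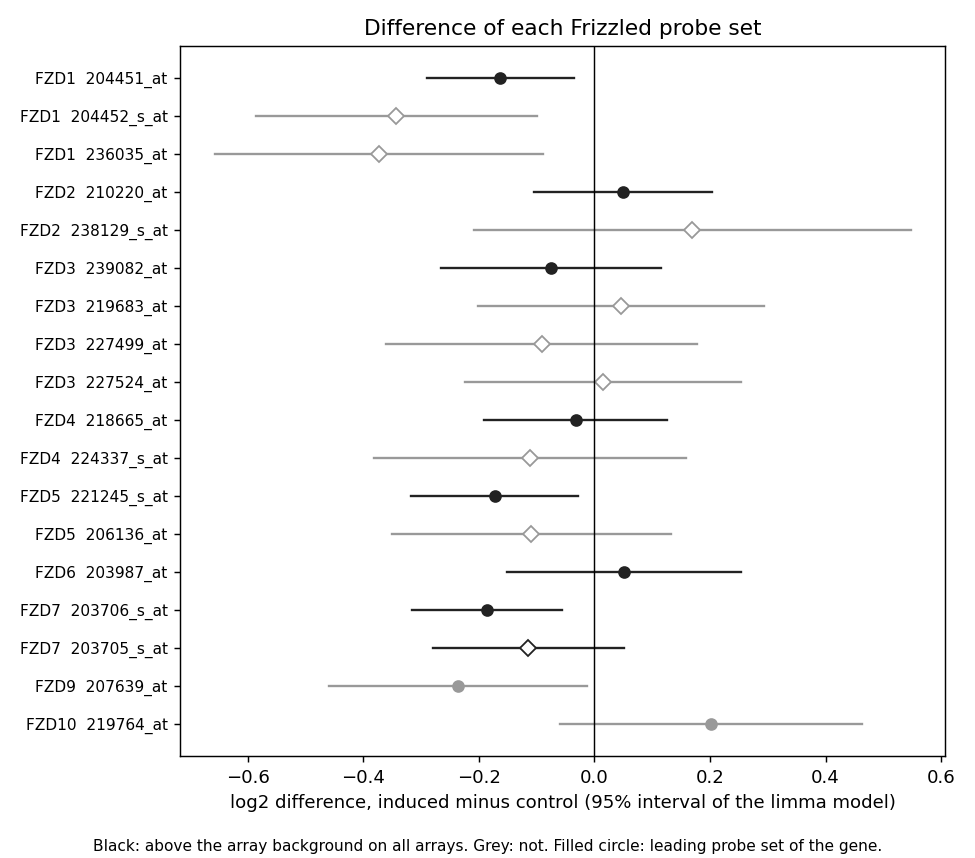
Log2 difference (induced minus control) of each of the 18 Frizzled probe sets with the 95% interval of the limma model, n = 2 arrays per group. The intervals of the 3 FZD1 probe sets and of 1 probe set each of FZD5, FZD7 and FZD9 lie below 0, while those of FZD2, FZD3, FZD4, FZD6 and FZD10 span it, and no probe set passed after adjustment.

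FZD7, a receptor through which beta-catenin signalling runs in several embryonic and tumour cell types, had the smallest p of the family. Its leading probe set, 203706_s_at, gave 8.96 and 9.00 in the arrays labelled induced against 9.21 and 9.12 in the controls. Both arrays labelled induced were below both controls. The log2 difference was -0.19 (SE 0.054, 95% interval -0.32 to -0.056), or 0.879-fold, with a limma adjusted p of 0.472. Its other probe set, 203705_s_at, gave 8.41 and 8.57 in the arrays labelled induced against 8.60 and 8.60 in the controls. That difference was -0.11 (SE 0.068), with an interval of -0.28 to 0.051. Here the second array labelled induced lay just under the controls, and without the first array labelled induced the difference was -0.034.

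FZD1, a close relative of FZD7, was lower on all 3 of its probe sets. The bright one, 204451_at, gave 8.66 and 8.64 in the arrays labelled induced against 8.85 and 8.79 in the controls. The groups did not overlap, and the difference of -0.16 (SE 0.053, 95% interval -0.29 to -0.036) corresponds to 0.893-fold, with an adjusted p of 0.472. The 2 dim probe sets gave larger differences. Probe set 204452_s_at was at 6.21 and 5.99 in the arrays labelled induced against 6.46 and 6.42 in the controls, a difference of -0.34 (SE 0.10). Probe set 236035_at was at 5.31 and 5.08 in the arrays labelled induced against 5.63 and 5.50 in the controls, a difference of -0.37 (SE 0.12). Neither of these exceeded the background on any array, and the second array labelled induced was the lowest of the 4 on both. Averaged over its probe sets FZD1 differed by -0.29 (SE 0.075, adjusted p = 0.365), where the adjusted p ranged from 0.346 to 0.901 over the alternatives run on its single probe sets.

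FZD2, the third receptor of this group and one that responds to WNT5A, pointed the other way without a clear difference. Its leading probe set, 210220_at, gave 7.74 and 7.67 in the arrays labelled induced against 7.66 and 7.65 in the controls. The groups were apart by a margin far under the gap within the pair labelled induced. The difference was 0.050 (SE 0.064), with an interval from -0.10 to 0.20. The dimmer probe set 238129_s_at gave 6.94 and 6.91 in the arrays labelled induced against 7.00 and 6.51 in the controls. Its groups overlapped because the controls lay far apart, and its difference was 0.17 (SE 0.16).

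**Figure D3:**
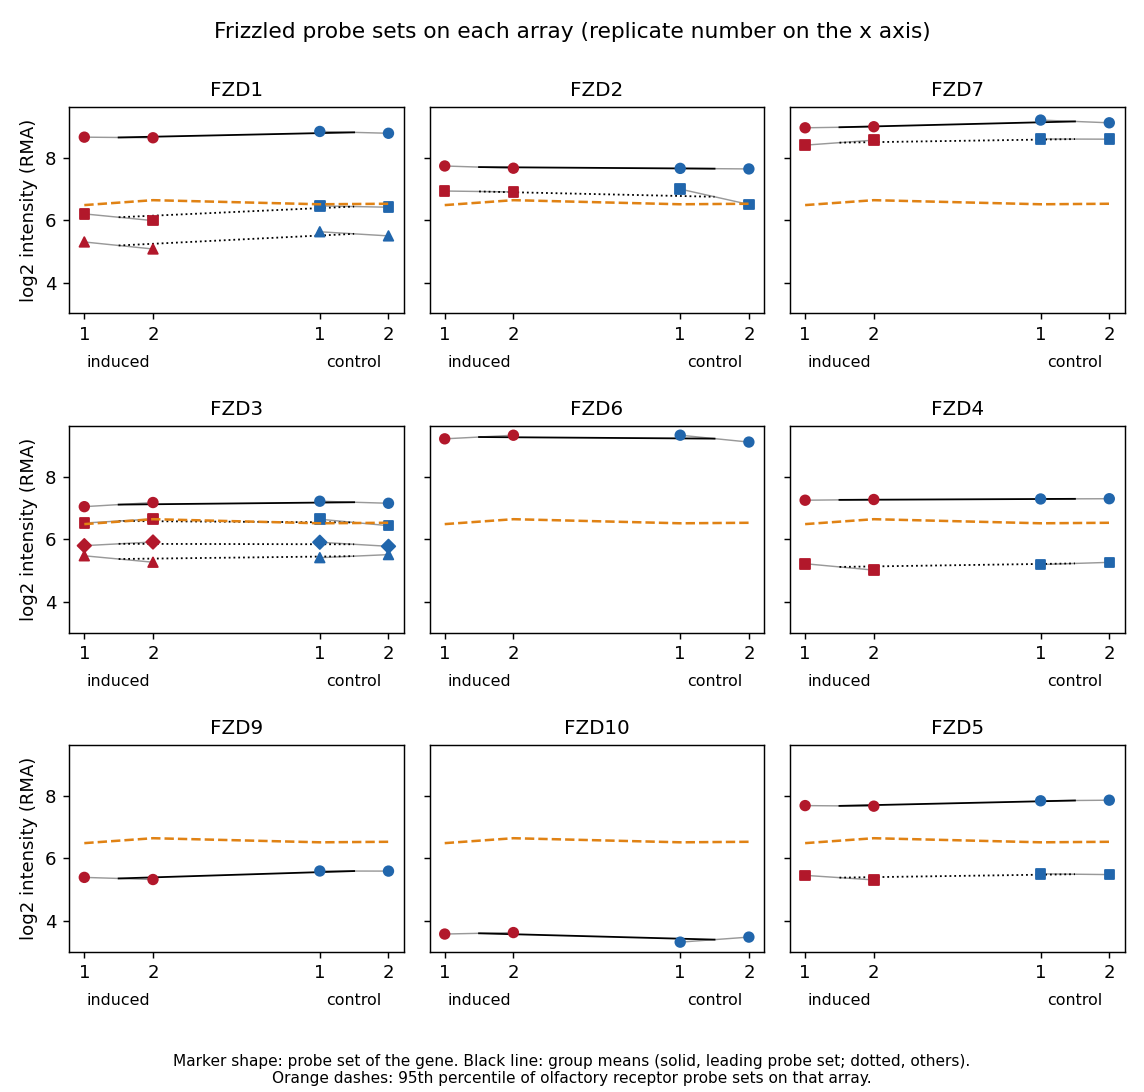
Log2 intensity of every Frizzled probe set on each array, with the arrays labelled induced in red on the left, the controls in blue on the right and the replicate number on the x axis. Marker shapes separate the probe sets of a gene, black lines join the group means and the orange dashes give the 95th percentile of olfactory receptor probe sets, above which the leading probe sets of FZD1 to FZD7 lie on all 4 arrays.

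FZD5, whose nearest relative is FZD8, had close replicates. Its leading probe set, 221245_s_at, gave 7.69 and 7.67 in the arrays labelled induced against 7.84 and 7.86 in the controls. The gap between the groups was several times the gap within either pair. The difference of -0.17 (SE 0.060, 95% interval -0.32 to -0.028), or 0.887-fold, had an adjusted p of 0.472, and it stayed between -0.18 and -0.16 when each array was left out in turn. The dim probe set 206136_at gave 5.46 and 5.31 in the arrays labelled induced against 5.51 and 5.48 in the controls, a difference of -0.11 (SE 0.10) with the arrays labelled induced below the controls.

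FZD1 and FZD5 were the genes above background, with an entry among the RefSeq promoters, whose groups did not overlap on any of their probe sets. Their promoter windows are shown to give the upstream sequence of these genes, from 250 bases before to 50 after the gene start in GRCh38.p14. FZD4, whose leading probe set differed least of the genes above background, is given beside them. They are written 5′ to 3′ on the strand of the gene, with capitals on CCAAT or its reverse complement ATTGG. The windows are chr7:91264183-91264482 (plus strand) for FZD1, chr2:207769857-207770156 (minus strand) for FZD5 and chr11:86955346-86955645 (minus strand) for FZD4.
FZD1: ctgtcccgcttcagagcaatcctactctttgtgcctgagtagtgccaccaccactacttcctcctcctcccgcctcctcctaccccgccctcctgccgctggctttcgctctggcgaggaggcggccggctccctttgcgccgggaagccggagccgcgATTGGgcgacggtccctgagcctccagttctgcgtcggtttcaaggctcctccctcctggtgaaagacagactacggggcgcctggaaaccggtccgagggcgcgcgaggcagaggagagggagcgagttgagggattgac
FZD5: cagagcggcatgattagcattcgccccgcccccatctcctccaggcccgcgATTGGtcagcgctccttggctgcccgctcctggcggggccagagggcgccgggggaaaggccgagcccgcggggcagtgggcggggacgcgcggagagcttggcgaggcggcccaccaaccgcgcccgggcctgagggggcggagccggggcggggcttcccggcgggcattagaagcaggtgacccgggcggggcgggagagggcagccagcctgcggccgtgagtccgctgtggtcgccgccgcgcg
FZD4: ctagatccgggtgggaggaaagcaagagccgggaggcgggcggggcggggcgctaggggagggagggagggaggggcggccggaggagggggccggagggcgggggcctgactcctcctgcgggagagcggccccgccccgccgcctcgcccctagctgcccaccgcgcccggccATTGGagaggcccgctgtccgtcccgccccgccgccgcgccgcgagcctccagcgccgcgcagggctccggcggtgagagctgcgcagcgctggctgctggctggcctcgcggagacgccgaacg

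All 3 windows are rich in G and C, at 65.7% in FZD1, 77.0% in FZD5 and 79.7% in FZD4, against a median of 58.7% over all windows. Each holds 1 ATTGG, which begins 91 bases before the gene start in FZD1, 199 in FZD5 and 75 in FZD4. CCAAT on either strand occurs in 34.6% of the 35116 promoter windows of this length. The GC box GGGCGG, searched on both strands, occurs 1 time in FZD1, 6 times in FZD5 and 6 times in FZD4, and in 45.0% of all windows at least 1 time. The string CTTTG followed by 2 bases that are each A or T, which fits the core bound by the TCF and LEF factors of the beta-catenin pathway, was not found on either strand, against 13.8% of all windows with at least 1. A match is a string in this window and no measured binding, and FZD4 carried the same CCAAT string as FZD1 and FZD5. Entries for FZD8 and FZD9 were matched too, with 1 CCAAT match on either strand in FZD8 and 0 in FZD9. FZD2, FZD3, FZD6, FZD7 and FZD10 had no entry.

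FZD3 and FZD6, known in mice for axon guidance and for the orientation of hair follicles, did not differ beyond the spread of the arrays. FZD6, read by probe set 203987_at, gave 9.22 and 9.33 in the arrays labelled induced against 9.33 and 9.11 in the controls. The groups overlapped, and the difference was 0.051 (SE 0.084), with an interval from -0.15 to 0.25. The leading FZD3 probe set, 239082_at, gave 7.05 and 7.18 in the arrays labelled induced against 7.22 and 7.15 in the controls. Its difference was -0.075 (SE 0.079), with an interval from -0.27 to 0.12. All 4 FZD3 probe sets overlapped between the groups, with differences from -0.092 to 0.046, of which 2 were positive and 2 negative. FZD3 was the only one of the 6 genes with several probe sets on which they disagreed in sign.

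FZD4, the receptor of norrin in retinal vessels, gave 7.25 and 7.28 in the arrays labelled induced against 7.29 and 7.30 in the controls on its leading probe set, 218665_at. The arrays labelled induced were lower by a small margin, and the difference of -0.033 (SE 0.065) had an interval from -0.19 to 0.13. Its dim probe set 224337_s_at gave 5.22 and 5.02 in the arrays labelled induced against 5.19 and 5.26 in the controls, which overlap. Together the intervals of the leading probe sets of FZD2, FZD3, FZD4 and FZD6 ran from -0.27 to 0.25 log2 units.

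FZD9, a gene of the region deleted in Williams syndrome, and FZD10, an antibody target in synovial sarcoma, were in the background range. FZD9 (207639_at) gave 5.39 and 5.32 in the arrays labelled induced against 5.60 and 5.59 in the controls. The groups were apart, with a difference of -0.24 (SE 0.092, adjusted p = 0.489, limma). FZD10 (219764_at) gave 3.58 and 3.62 in the arrays labelled induced against 3.32 and 3.48 in the controls, a difference of 0.20 (SE 0.11, adjusted p = 0.561, limma). Both probe sets lay within the range of the olfactory receptor probe sets on every array.

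The second array labelled induced was the lowest of the 4 in 8 of the 18 Frizzled probe sets, against 30.8% of all probe sets. Among the 10 Frizzled probe sets not above background on every array it was the lowest in 6, against 27.9% of all probe sets of that kind. Among the 8 above background it was the lowest in 2, against 34.9%. In these 8 the first array labelled induced was the lowest in 4, against 4244 of all 22015 probe sets above background, and the second control array in 2. Without the second array labelled induced the median Frizzled difference was -0.044. The 3' minus 5' difference of that array is given above, and its part in these values was not tested.

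Marker lists differed in size and direction, with median log2 differences from -0.18 (oligodendrocyte) to 0.067 (neuron), against -0.075 over the leading Frizzled probe sets. The glioma and astrocyte markers averaged 9.53 and 9.50 in the arrays labelled induced against 9.58 and 9.58 in the controls, with 5 of 10 lower without overlap and 1 higher, against 22.4% and 21.4% of all leading probe sets. The leukocyte markers averaged 5.88 and 5.93 in the arrays labelled induced against 5.96 and 5.97 in the controls. Taken singly, 0 of these 5 were without overlap, and 2 lay above background on all arrays. The oligodendrocyte markers averaged 6.29 and 6.37 in the arrays labelled induced against 6.43 and 6.56 in the controls. All 3 measured were lower without overlap, against the same 22.4%, but only 1 lay above background on all arrays. The neuron markers averaged higher, at 9.07 and 9.00 in the arrays labelled induced against 8.95 and 8.92 in the controls. By sign 3 of the 4 were higher, with the largest difference in SYT1 (0.35), while TUBB3 was lower (-0.082). The endothelial markers averaged 5.35 and 5.38 in the arrays labelled induced against 5.27 and 5.34 in the controls. By sign 2 of these 5 were higher, among them TEK (0.32, below background), and 3 were lower, with a median difference of -0.0048. The epithelial markers overlapped, at 6.36 and 6.41 in the arrays labelled induced against 6.38 and 6.45 in the controls. The part of these shifts in the Frizzled differences was not tested.

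The genes whose pattern lay nearest to FZD7 over the 4 arrays were RFX5, PPP1R14C and EMC1. Nearness was the root mean square difference of log2 values after each gene's mean was subtracted, at 0.0054, 0.012 and 0.014 for the 3 genes among 12721 genes at or above the median level. The pattern rests on only 4 arrays. Of these genes 4801 lay within 0.1 of FZD7, a limit far wider than the values of the 3 genes. How common nearness as close as theirs is was not tested.

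The other genes at the receptor level of WNT signalling showed no called change either. Of 63 listed genes 58 were measured, 28 lay above background on all arrays, and 0 passed after adjustment (lowest adjusted p = 0.472, limma). Before adjustment 4 were higher and 5 lower under 0.05, 15.5% in all, against 11.2% of all genes by their leading probe set. Their median difference was -0.0058. For the Frizzled genes themselves the count by leading probe set was 0 higher and 4 lower of 9, with a median of -0.075.

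Among the 10 co-receptors and other WNT receptors 2 lay higher and 2 lower with p under 0.05 before adjustment, against 11.2% of all leading probe sets in either direction. LRP6, the co-receptor that joins Frizzled in beta-catenin signalling, was at 8.49 and 8.42 in the arrays labelled induced against 8.68 and 8.65 in the controls, a difference of -0.21 (SE 0.056). Its 2 other probe sets ran from -0.18 to 0.034. RYK, a WNT-binding receptor with an inactive kinase domain, was at 10.80 and 10.80 in the arrays labelled induced against 10.72 and 10.65 in the controls, a difference of 0.12 (SE 0.042). Its other probe sets gave -0.17 to 0.032. RECK, which with ADGRA2 presents WNT7 ligands to Frizzled, differed by 0.19 (SE 0.069), with other probe sets from -0.13 to 0.088. ROR2, a receptor of WNT5A, was below background and differed by -0.27 (SE 0.10). LRP5 differed by -0.0082 (SE 0.079).

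Of the ligands, 18 of 20 listed were measured and 6 lay above background on all arrays. Among the 18, 1 was higher and 1 lower with p under 0.05 before adjustment, against 11.2% of all leading probe sets in either direction. Before adjustment WNT6 was higher, at 7.14 and 7.64 in the arrays labelled induced against 7.06 and 6.82 in the controls, a difference of 0.45 (SE 0.17). Its 3 other probe sets pointed slightly down, from -0.12 to -0.016. WNT8B, below background, differed by -0.20 (SE 0.083). WNT5A, a ligand of several Frizzled receptors and well above background, differed by 0.12 (SE 0.063).

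Frizzled proteins are removed from the cell surface by the ubiquitin ligases ZNRF3 and RNF43, which R-spondins silence through LGR receptors. ZNRF3 was at 8.99 and 9.09 in the arrays labelled induced against 9.07 and 9.08 in the controls, a difference of -0.035 (SE 0.055), and RNF43 differed by -0.091 (SE 0.12). Of the 10 genes of this group 1, LGR5, stood under 0.05 before adjustment, against 11.2% of all leading probe sets. LGR5 was below background and differed by 0.39 (SE 0.14), while its other probe set gave -0.42.

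The secreted Frizzled-related proteins carry a Frizzled-like domain that binds WNT ligands. SFRP1, the 1 of 5 above background, was at 7.43 and 7.33 in the arrays labelled induced against 7.59 and 7.62 in the controls, a difference of -0.23 (SE 0.069). Its 3 other probe sets were lower too, from -0.35 to -0.20. Of the 6 measured genes for export and retention of WNT proteins and receptors, APCDD1, a membrane inhibitor of the pathway, differed by -0.32 (SE 0.11) below background. The other APCDD1 probe set gave -0.055. The Dishevelled genes DVL1, DVL2 and DVL3, which carry the signal from Frizzled into the cell, differed by 0.019 (SE 0.062), -0.0034 (SE 0.060) and 0.0020 (SE 0.051). None of the 8 measured cytoplasmic partners stood under 0.05 before adjustment, against 11.2% of all leading probe sets. SMO, the Hedgehog signal transducer and nearest relative of the Frizzled family, differed by -0.065 (SE 0.071).

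**Figure D4:**
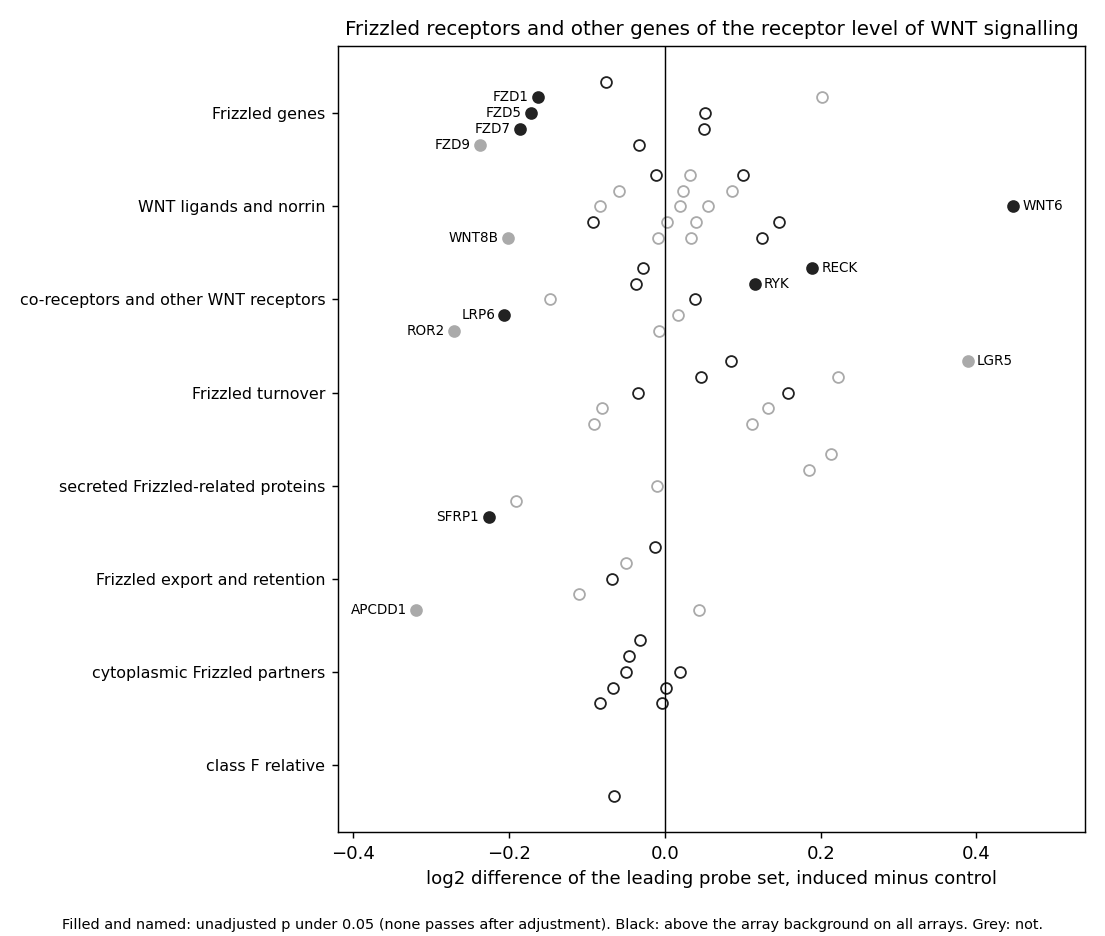
Log2 difference (induced minus control) of the leading probe set of each measured gene, by list, n = 2 arrays per group, with filled and named points for an unadjusted p under 0.05 and black points for genes above background on all arrays. FZD1, FZD5 and FZD7 lie at -0.16 to -0.19 near LRP6 and SFRP1, the Dishevelled genes are among the points near 0, and no gene passed after adjustment.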

How the data were processed

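Total RNA of 4 LN-229 cultures was amplified to biotin-labelled cRNA, per the labels' protocols. The authors deposited 1 log2 intensity for each probe set and array. Per the submitters' processing notes these come from RMA and affy, whose versions are not given in the sources used here. RMA corrects background and equalises the distributions of the arrays, so a change shared by most genes is not seen and low signals are compressed. The number of arrays limits precision. Of 54675 rows 62 control probe sets were left out, and 41091 of the remaining 54613 had 1 gene symbol. The 9 Frizzled symbols matched the RefSeq table of GRCh38.p14 by gene identifier.

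Groups came from the sample titles. Differences were tested 2-sided with limma 3.58.1 under R 4.3.3, using eBayes with a trend on intensity and 6.27 degrees of freedom. P-values were adjusted over the 54613 probe sets by Benjamini-Hochberg, at a threshold of 0.05. Intervals are at the 95% level of that model. The procedure was tested on simulated data with changes larger than any Frizzled difference given here. Its ability to find changes as small as those was not tested. Figures were drawn with matplotlib 3.10.9.

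All Frizzled genes were named with every probe set. Of other genes, WIF1, list members with an unadjusted p under 0.05 (up to 4 a list) and the 3 genes nearest in pattern to the above-background Frizzled gene of smallest p were named by rule, while LRP5, WNT5A, ZNRF3, RNF43, the Dishevelled genes, SMO and the markers given were picked from the lists for their role. The members and lists were chosen with earlier results of these data known. The alternatives tried were a block for the replicate number, eBayes without the trend or robust, a filter on dim probe sets, arrays centred on medians, cyclic loess, a threshold of 0.1, averaged probe sets, other background limits and leaving out each array.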

Additional observations from a re-analysis of the deposited data

How the results depend on the processing

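The count of 0 called Frizzled probe sets and the 7 genes above background held under every alternative run on them. Among all probe sets, 0 were called in the fit reported, 2 with robust eBayes, 5 with arrays centred on their medians, 11 after cyclic loess and 2 at an adjusted p under 0.1, none of them Frizzled. The median Frizzled difference was -0.076 with centred arrays and -0.075 among the 11 probe sets at or above the median level, 7 of which had groups apart (46.2% of all such probe sets). Leaving out each array in turn gave medians from -0.10 to -0.044, groups apart in 12 to 17 probe sets (67.1% to 74.0% of all, where 1 group is a lone array), and 1 to 3 probe sets with an unadjusted p under 0.05 (3.91% to 11.4% of all), from fits that assume a lone array to vary like the other group. The signs of 13 of the 18 probe sets held throughout. The others turned in some of these fits, with ranges of -0.059 to 0.16 for FZD6, -0.077 to 0.42 for FZD2 (238129_s_at), and -0.058 to 0.15 (219683_at), -0.19 to 0.011 (227499_at) and -0.051 to 0.080 (227524_at) for FZD3, and the cause was not tested. Replicate numbers do not show pairing in the labels, and deviations of same-numbered arrays correlated at r = 0.056 over probe sets. With the replicate block 5 Frizzled probe sets stood under 0.05 before adjustment, against 8.10% of all, and 0 were called.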

Other observations

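The 3 probe sets annotated to both FZD8 and MIR4683 could not be assigned to FZD8 alone. Probe set 227405_s_at gave 9.12 and 9.07 in the arrays labelled induced against 9.13 and 9.35 in the controls, a difference of -0.14 (SE 0.078), and lay above background on all arrays. Probe set 224325_at gave 7.87 and 7.89 in the arrays labelled induced against 7.87 and 7.69 in the controls, a difference of 0.10 (SE 0.077), also above background. Probe set 216587_s_at gave 6.36 and 6.02 in the arrays labelled induced against 6.54 and 6.47 in the controls, a difference of -0.32 (SE 0.12), and exceeded the background on 1 array. The bright probe sets thus pointed in opposite directions, and the lowest limma adjusted p of the 3 was 0.490.

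Transcripts next to Frizzled genes were read by 3 further probe sets, none above background on any array. FZD10-AS1 differed by -0.11 (SE 0.096) and -0.13 (SE 0.098) on its 2 probe sets, and FZD4-DT differed by 0.15 (SE 0.19).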
